A study of Danio rerio with 26 samples.

Results

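The comparison asked whether the dorsal subventricular zone (SVZ) of the adult zebrafish telencephalon answered a lesion at day 2 differently from the dorsal parenchyma next to it. It was made in 2 ways: as the difference of the responses, that is the day 2 minus no lesion change in the dorsal SVZ minus the same change in the parenchyma, and as a direct contrast of the day 2 groups. The members were the arrays of 4 groups, 11 of the 26 arrays of the series, chosen by region and time alone. They were 2 of unlesioned parenchyma, 3 of parenchyma at day 2, 3 of unlesioned dorsal SVZ and 3 of dorsal SVZ at day 2. All fish were 3-6 months old and carried the transgene Tg(gfap:gfp)mi2001, a reporter that puts green fluorescent protein under the promoter of the glial filament gene gfap. The source labels name a stab wound, whereas the treatment text describes injection into the brain ventricle through a small hole in the skull. Whether the unlesioned fish had any operation is not given in the sources used here. Each array is labelled a biological replicate, but how many animals it holds is not stated, so p-values measure the spread between arrays. That spread was estimated within the 9 groups of all 26 arrays, not from the 11 members alone. Microarray brightness was deposited as log2 intensity for each probe set, and 19260 genes were tested.

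The dorsal SVZ of the fish telencephalon is the cell layer that lines the ventricle. Its radial glia act as neural stem cells, and new neurons leave it for the parenchyma, which holds mature neurons, oligodendrocytes and vessels. Microglia are the resident phagocytes of the brain, and together with invading macrophages they gather at a wound, clear debris with actin-driven engulfment and digest it in lysosomes. Cells make cholesterol in a chain of enzymes from acetyl-CoA through squalene and lanosterol. They raise or lower these enzymes together through transcription factors that are controlled by the sterol level of the cell.

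The mean of the radial glia list separated the arrays of the 2 regions, while single markers were mixed. The list was chosen with earlier results of these data known, so it is no independent check of the labels. The mean of 35 radial glia genes lay between 7.79 and 7.93 on the 6 dorsal SVZ arrays and between 6.24 and 6.61 on the 5 parenchyma arrays. The Notch target her4.1 was at 7.34 to 7.78 in the dorsal SVZ and 2.38 to 3.52 in the parenchyma, and the myelin gene mbpa was at 3.46 to 5.29 and 8.22 to 9.02. Of 17 oligodendrocyte genes, 3 were called lower in the dorsal SVZ at day 2, mbpa among them, and 13 were not called. The remaining 1, the myelin gene cnp, was called higher there. Over all genes 2.23% were called lower and 4.76% higher. The gene gfap, whose promoter drives the reporter, lay at 7.02 to 7.95 in the dorsal SVZ and 7.18 to 8.92 in the parenchyma, with overlap, and was called in neither direction at either time. These were pieces of tissue, and in such samples fewer cells of a type and less RNA per cell cannot be told apart.

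Among all genes, 10 were called in the difference of the responses (0.0519% of those tested, limma, adjusted p under 0.05). All 10 differences were negative, which describes the day 2 minus no lesion change and not the level of the gene in either region. No called difference was positive (0.00%), although 610 genes had a positive and 700 a negative difference at an unadjusted p under 0.05 (3.17% and 3.63%). Of the 10 genes, 9 were also called risen in the parenchyma at day 2 (1.70% of all genes were), 1 was called risen in the dorsal SVZ (0.182%) and 1 was called fallen there (0.0883%). The sizes of the difference ran from -1.41 to -2.63 on the log2 scale. The day 2 arrays of the 2 regions with the same replicate number had weakly correlated deviations (r 0.172 to 0.259 over 3 pairs). Unlesioned arrays with the same number did not (r -0.112 to -0.001). The labels do not say whether the replicate number marks the same animals. In a fit with that number as a block within each time, 0 of the 10 genes were called (659 lower at an unadjusted p under 0.05, limma), whereas with it as a random block 11 genes were lower, the 10 among them. All 10 calls were also lost without parenchyma day 2 replicate 3 and without parenchyma no lesion replicate 1, while every sign was kept.

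**Figure D1:**
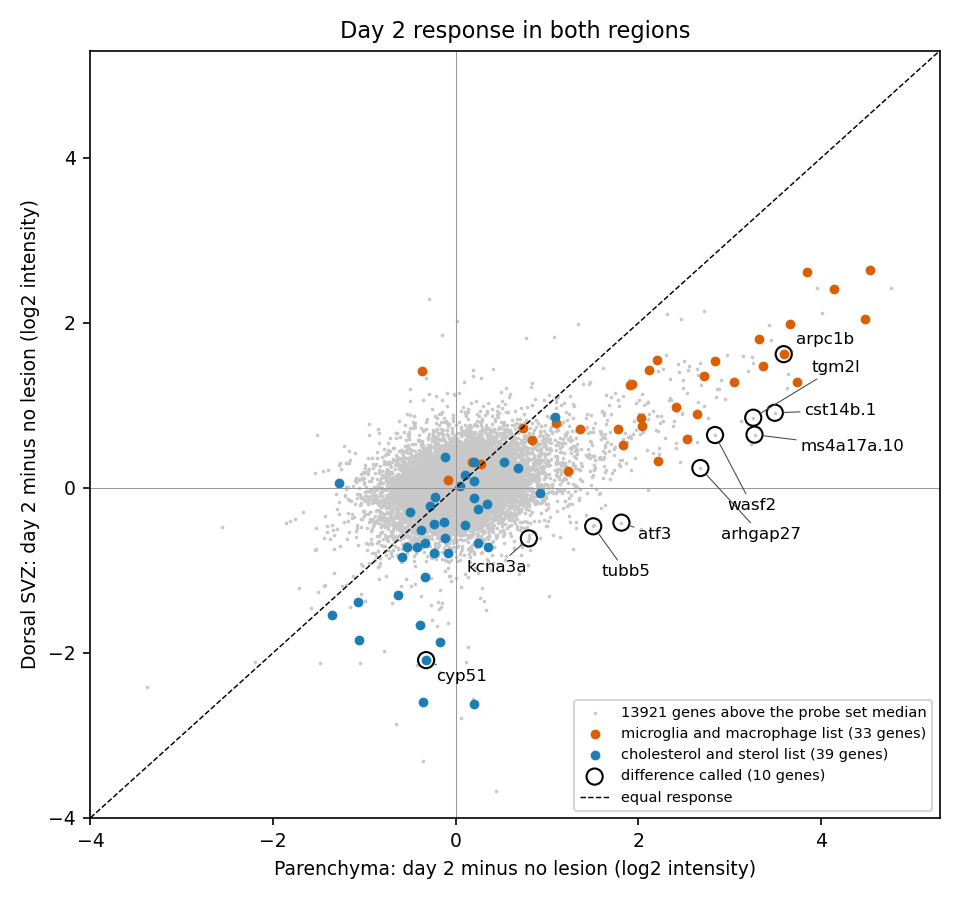
Each point is a gene, with its day 2 minus no lesion change in the parenchyma on the horizontal axis and in the dorsal SVZ on the vertical axis, both as log2 intensity. Grey points are the 13921 genes above the median of all probe sets, orange points the microglia list and blue points the cholesterol list, the dashed line marks an equal response, and the 10 circled genes all lie on the parenchyma side of it.

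A pair of the 10 genes, arpc1b and wasf2, act on the actin skeleton with which phagocytes move and engulf. The gene arpc1b encodes a subunit of the Arp2/3 complex, which nucleates branched actin. It lay at 4.39 and 4.26 in unlesioned parenchyma and at 7.94, 7.49 and 8.33 at day 2, and at 5.03, 4.95 and 4.92 in unlesioned dorsal SVZ and at 6.29, 6.56 and 6.91 at day 2. Both day 2 groups lay above their unlesioned groups, and the parenchyma day 2 arrays above those of the dorsal SVZ. The rise was 3.59 in the parenchyma and 1.62 in the dorsal SVZ, and the difference was -1.97 (SE 0.34, adjusted p = 0.0293). It was the 1 gene of the 10 called risen in both regions.

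The gene wasf2 encodes a WAVE protein that switches Arp2/3 on. It was at 4.78 and 5.11 in unlesioned parenchyma, 7.57, 7.47 and 8.31 there at day 2, 5.97, 5.80 and 5.88 in unlesioned dorsal SVZ, and 6.56, 6.43 and 6.58 there at day 2. The order of the regions was turned between the times: unlesioned dorsal SVZ was higher by 0.94 (SE 0.28, adjusted p = 0.0427) and at day 2 it was lower by 1.26 (limma difference -1.26, SE 0.25, adjusted p = 0.00169). The difference of the responses was -2.20 (SE 0.37, adjusted p = 0.0293). Among the 429 genes called lower in the dorsal SVZ at day 2 (2.23% of all genes), wasf2 was the 1 gene called in the opposite direction without a lesion.

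The gene arhgap27 stood at 3.94 and 4.64 in unlesioned parenchyma and 6.55, 6.87 and 7.50 at day 2. In the dorsal SVZ it was at 7.54, 6.63 and 6.92 without a lesion and 7.00, 6.93 and 7.88 at day 2. The 3 other groups overlapped with each other, and unlesioned parenchyma alone was low, so the difference of -2.44 (SE 0.46, adjusted p = 0.0439) was a rise in the parenchyma to the level that the dorsal SVZ held at both times.

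The transglutaminase gene tgm2l, whose product cross-links proteins, had values of 2.77 and 3.05 in unlesioned parenchyma and 6.23, 5.91 and 6.37 at day 2. In the dorsal SVZ it read 3.05 on all 3 unlesioned arrays and 4.08, 4.15 and 3.46 at day 2. Both unlesioned means lay under 3.09, the median of all probe sets, where signal and background cannot be told apart, and its folds are therefore not exact. The difference was -2.41 (SE 0.37, adjusted p = 0.0114). At day 2 the parenchyma was higher with no overlap (direct contrast -2.27, SE 0.25, adjusted p = 7.22e-07), and without a lesion the regions differed by 0.14 (adjusted p = 0.837).

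The gene ms4a17a.10 belongs to the MS4A family of membrane proteins that span the membrane, several of which mark immune cells in mammals. Unlesioned parenchyma gave 4.99 and 5.13 and day 2 parenchyma 7.80, 8.29 and 8.91. Unlesioned dorsal SVZ gave 5.47, 5.50 and 5.74 and day 2 dorsal SVZ 6.13, 6.21 and 6.31. The parenchyma day 2 arrays stood above all others, and the difference of -2.63 (SE 0.48, adjusted p = 0.0385) was the widest of the 10. The dorsal SVZ change of 0.65 was not called (adjusted p = 0.743), although its groups did not overlap.

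The cystatin gene cst14b.1 encodes an inhibitor of cysteine proteases. It was at 3.95 and 4.39 in unlesioned parenchyma and at 7.69, 7.49 and 7.82 at day 2, against 6.55, 7.29 and 7.37 in unlesioned dorsal SVZ and 8.19, 7.87 and 7.90 at day 2. Like arhgap27, it was high in the dorsal SVZ before the lesion (2.90 above the parenchyma, adjusted p = 8.18e-06). At day 2 the regions differed by 0.32 (SE 0.33, adjusted p = 0.701), and the difference of the responses was -2.58 (SE 0.49, adjusted p = 0.0440).

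A pair of the called genes belongs to the list of axon regrowth and microtubule genes. The beta-tubulin gene tubb5 was at 8.11 and 8.65 in unlesioned parenchyma, 9.61, 10.02 and 10.03 there at day 2, 11.62, 11.11 and 11.21 in unlesioned dorsal SVZ, and 11.06, 10.76 and 10.72 there at day 2. The 4 groups did not overlap, and the gap between the regions narrowed from 2.93 (adjusted p = 3.91e-09) to 0.96 (adjusted p = 0.00221). The difference of the responses was -1.97 (SE 0.29, adjusted p = 0.0114), and a second probe set of tubb5 gave -1.72. The parenchyma rise of 1.51 passed the test and the dorsal SVZ value of -0.47 did not (adjusted p = 0.623).

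The transcription factor gene atf3 is induced in injured neurons and many stressed cells. It was at 2.98 and 2.77 in unlesioned parenchyma and at 5.03, 4.74 and 4.29 at day 2. In the dorsal SVZ it was at 4.38, 3.27 and 3.32 without a lesion and 3.03, 3.35 and 3.32 at day 2, which overlap. The unlesioned parenchyma mean of 2.87 lay under 3.09, so the size of the difference, -2.24 (SE 0.42, adjusted p = 0.0439), is not exact. The call was lost without 10 of the 11 arrays taken one at a time, the most of the 10 genes.

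The gene kcna3a encodes a voltage-gated potassium channel. Its arrays read 6.29 and 6.65 in unlesioned parenchyma and 7.47, 7.13 and 7.22 at day 2, and 7.22, 7.45 and 7.67 in unlesioned dorsal SVZ and 6.60, 6.76 and 7.14 at day 2. It rose by 0.80 in the parenchyma (adjusted p = 0.0185), while the dorsal SVZ value was -0.61 (adjusted p = 0.198), and the difference was -1.41 (SE 0.25, adjusted p = 0.0315). The day 2 groups overlapped.

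The remaining gene, cyp51, encodes the lanosterol demethylase of cholesterol synthesis and was the 1 gene of the 10 not called risen in the parenchyma. Unlesioned dorsal SVZ stood above the other groups at 7.72, 7.95 and 8.29, and day 2 dorsal SVZ was at 5.62, 5.74 and 6.33. The parenchyma was at 5.76 and 5.56 without a lesion and 4.97, 5.60 and 5.44 at day 2. The fall in the dorsal SVZ (-2.09, SE 0.21, adjusted p = 2.2e-05) brought it near the parenchyma level, and the direct contrast at day 2 was 0.56 (adjusted p = 0.127). The difference of the responses was -1.76 (SE 0.32, adjusted p = 0.0385).

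**Figure D2:**
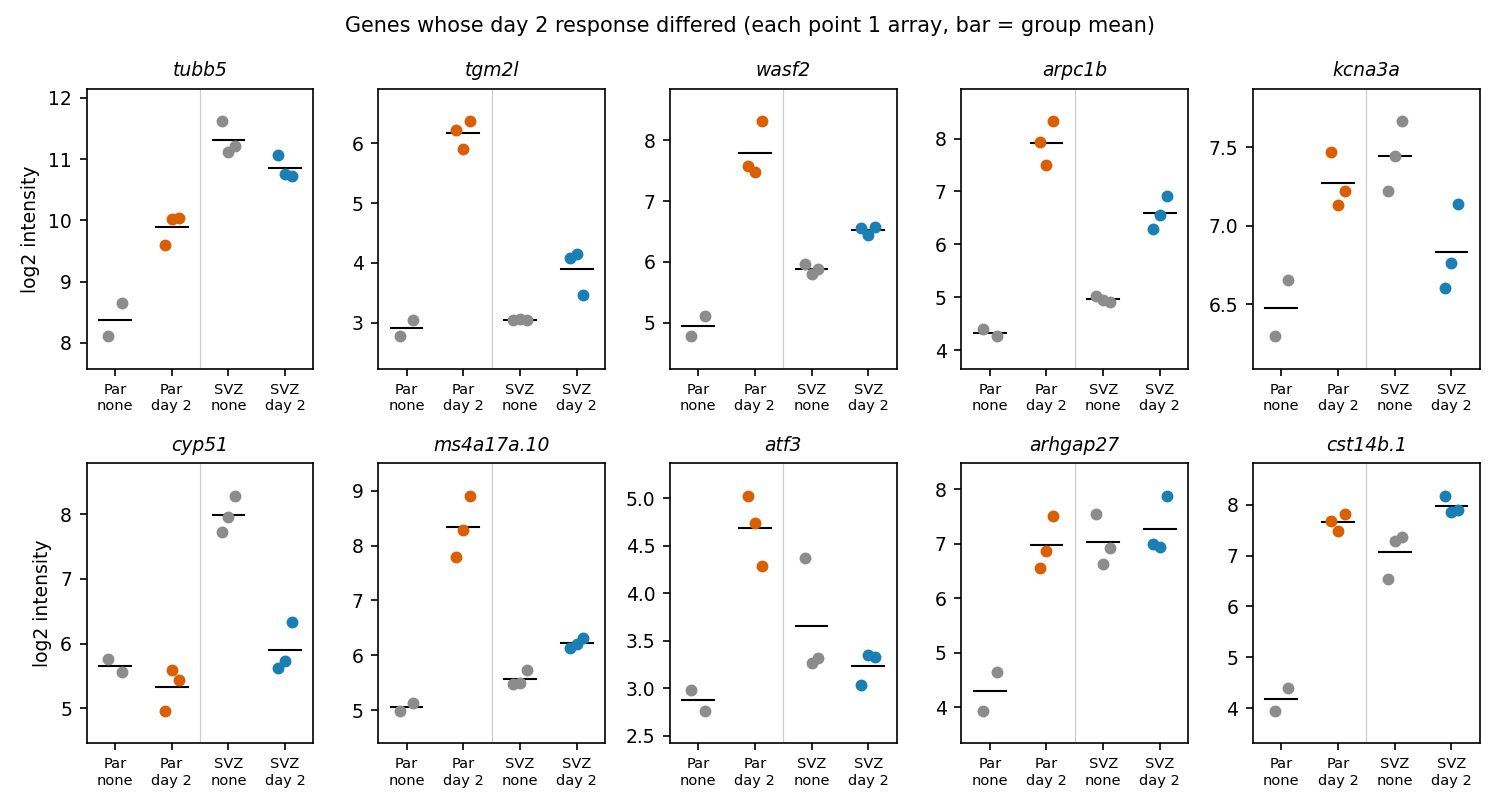
Each panel shows 1 of the 10 genes called in the difference of the responses, with 1 point per array and a bar at the mean of each group, as log2 intensity on the vertical axis. The unlesioned groups are grey, day 2 parenchyma is orange and day 2 dorsal SVZ is blue, and 9 panels rise in the parenchyma while cyp51 falls in the dorsal SVZ.

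Before the lesion, 6 of the 10 genes were called higher in the dorsal SVZ (tubb5, wasf2, kcna3a, cyp51, arhgap27 and cst14b.1), against 4.89% of all genes. At day 2 tubb5 was called higher and tgm2l, wasf2, arpc1b, ms4a17a.10 and atf3 were called lower in the dorsal SVZ, while the 4 others did not pass the test. The sign of the dorsal SVZ change was positive for 6 of the 10 genes. These contrasts share their arrays with the difference of the responses, so the counts describe its parts and are no separate evidence.

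The genes ranked next in the difference did not pass its threshold. The growth factor gene igf2b was closest (difference -2.53, adjusted p = 0.0527), with 4.00 and 3.63 in unlesioned parenchyma, 5.96, 5.22 and 6.36 at day 2, 8.50, 7.79 and 7.19 in unlesioned dorsal SVZ and 7.33, 7.61 and 7.04 at day 2. The osteoclast-stimulating factor gene ostf1 followed at -2.32 (adjusted p = 0.0909), and its other probe sets gave -1.85 and -0.34. The forkhead gene foxj2 had -1.45 (adjusted p = 0.0927), and the sterol genes sqlea and sc5d ranked beside it. The scavenger receptor gene cd68, a marker of phagocyte lysosomes, had -2.46 (adjusted p = 0.0957), and the lysosomal acid phosphatase gene acp2 had -1.64 (adjusted p = 0.0940). The iron exporter gene slc40a1 had -1.84 (adjusted p = 0.106), with a rise of 1.59 in the parenchyma (adjusted p = 0.00243) and overlapping groups in the dorsal SVZ.

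On the positive side no gene passed. The secreted peptide gene ostn, which encodes osteocrin, came first at 2.02 (SE 0.41, adjusted p = 0.0909). It was at 3.78 and 3.76 in unlesioned parenchyma, 3.99, 3.81 and 3.53 there at day 2, 4.58, 3.65 and 4.83 in unlesioned dorsal SVZ, and 6.18, 6.37 and 6.59 there at day 2. The day 2 dorsal SVZ arrays stood above all others, the rise there was 2.03 (adjusted p = 0.000556), and the direct contrast at day 2 was 2.60 (SE 0.27, adjusted p = 5.03e-07). The liprin gene ppfibp2a had a similar shape at a smaller size, with a difference of 1.21 (adjusted p = 0.193) and a dorsal SVZ rise of 0.95 (adjusted p = 0.0361).

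Most other genes at the top of the positive side had their change in the parenchyma. The metalloprotease gene adam15 was at 5.82 and 5.77 in unlesioned parenchyma and 4.51, 4.99 and 4.23 at day 2, against 4.28, 4.17 and 4.97 and then 5.22, 4.90 and 4.81 in the dorsal SVZ. Its fall of 1.22 in the parenchyma passed the test (limma log2 fold change -1.22, adjusted p = 0.0165), and the difference of 1.72 did not (adjusted p = 0.106). The plakophilin gene pkp2 (difference 1.23, adjusted p = 0.113), the mitochondrial fatty acid synthesis gene oxsm (1.50, adjusted p = 0.140), kctd15b (1.57, adjusted p = 0.193) and the hedgehog ligand gene dhh (1.21, adjusted p = 0.198, and 0.07 by a second probe set) were also called fallen in the parenchyma and not in the dorsal SVZ. So was the prostaglandin synthase gene ptgdsa (0.88, adjusted p = 0.176), although its 4 group means lay under 3.09. For fnbp1l (1.51, adjusted p = 0.131, and 0.62 by a second probe set) and the zinc finger gene znf76 (0.97, adjusted p = 0.179), neither region's change was called.

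**Figure D3:**
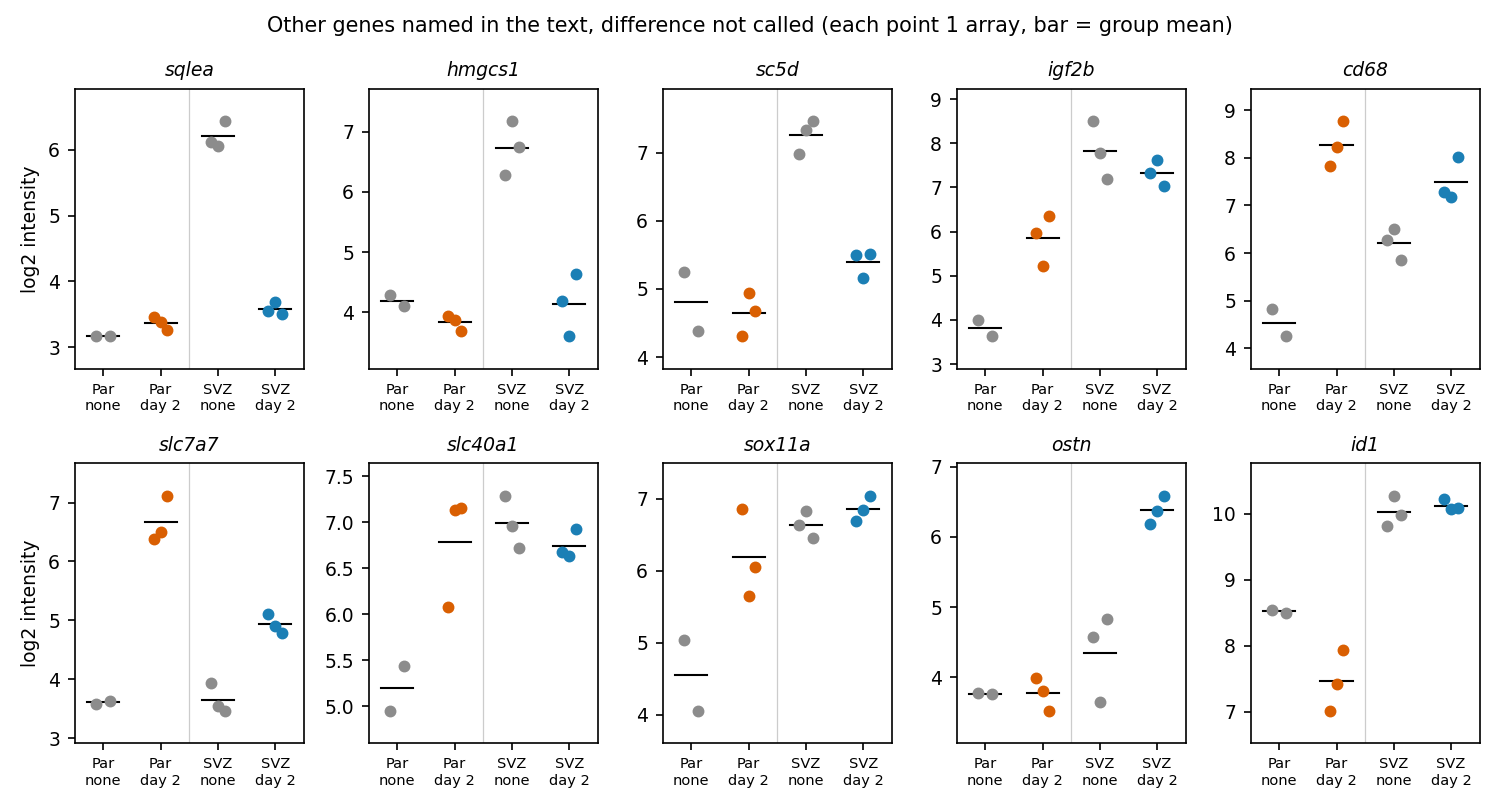
Each panel shows 1 gene named in the text whose difference of the responses was not called, with 1 point per array and a bar at each group mean, as log2 intensity. The colours are those of the called genes, with sqlea, hmgcs1 and sc5d lower and ostn higher in day 2 than in unlesioned dorsal SVZ.

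Of the 29 gene lists, that of microglia and macrophages had the lowest median in the difference. Of 33 measured genes of the list, 1 was called lower in the difference (arpc1b) and 32 were not called. At an unadjusted p under 0.05, 19 were lower and 1 higher, against 3.63% and 3.17% of all genes. Of the 33, 29 had a negative sign, and the median was -1.29, against 0.01 over all genes. In the parenchyma 25 of the 33 rose (1.70% of all genes did) and none fell, with a median change of 2.21. In the dorsal SVZ 12 rose (0.182% of all genes did) and none fell, with a median of 1.25, and all 12 were among the 25. The mean of the list was close in both regions without a lesion, 4.66 on both parenchyma arrays and 4.66, 4.85 and 4.91 in the dorsal SVZ. At day 2 it was 6.53, 6.81 and 7.38 in the parenchyma and 5.74, 5.85 and 6.31 in the dorsal SVZ, with no overlap.

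The gene mpeg1.1, which encodes a pore-forming protein of macrophages, was at 8.14, 8.40 and 9.28 in day 2 parenchyma and 6.62, 7.12 and 7.14 in day 2 dorsal SVZ, from 4.54 and 4.4 and from 4.80, 4.37 and 4.47. It rose in both regions, by 4.14 and 2.41, and its difference of -1.73 (SE 0.45) did not pass the test (adjusted p = 0.224). The amino acid transporter gene slc7a7, needed in microglia, was at 6.38, 6.50 and 7.12 in day 2 parenchyma and 5.12, 4.90 and 4.79 in day 2 dorsal SVZ. Its difference was -1.77 (adjusted p = 0.140). The purinergic receptor gene p2ry12, a marker of resident microglia in mammals, was at 4.62, 5.39 and 5.45 in day 2 parenchyma and 2.83, 3.10 and 4.00 in day 2 dorsal SVZ, where its change was not called. The lipid carrier gene apoeb reached 11.62, 11.59 and 12.02 in the parenchyma and 10.76, 10.41 and 11.02 in the dorsal SVZ, with a difference of -1.67 (adjusted p = 0.294) and -1.16 by a second probe set. The leukocyte phosphatase gene ptprc stayed under 3.09 on 8 of the 11 arrays, with 5.12 on parenchyma day 2 replicate 3, and the adaptor gene tyrobp had group means of 2.37 to 2.54.

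In the direct contrast of the day 2 groups, 15 of the 33 microglia genes were called lower in the dorsal SVZ and 1 higher, against 2.23% and 4.76% of all genes, and the median was -1.03. Without a lesion 1 of the 33, cd68, was called higher in the dorsal SVZ and none lower, with a median of 0.08. The phagocytic receptor gene havcr1 was lower at day 2 by 2.09 (direct contrast -2.09, adjusted p = 5.9e-05), the galectin gene lgals9l1 had -2.04 (adjusted p = 0.00317), p2ry12 -1.85 (adjusted p = 0.000188) and mpeg1.1 -1.65 (adjusted p = 0.000779). The myeloid transcription factor genes spi1b and irf8 were lower too, with -1.57 and -1.21. The leukocyte actin-bundling gene lcp1 (-0.82, adjusted p = 0.129), apoeb (-1.01, adjusted p = 0.0619) and the receptor gene csf1ra (-0.81, adjusted p = 0.0833) did not pass. The gene called higher was mpeg1.2 (1.91, adjusted p = 0.00696), with a mean of 2.44 in day 2 parenchyma, under 3.09, and 4.35 in day 2 dorsal SVZ, so its size is not exact.

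None of 25 measured lysosomal genes was called in the difference, and the median was -0.47. At an unadjusted p under 0.05, 6 were lower and none higher, against 3.63% and 3.17% of all genes. The median of the difference was -0.25 without parenchyma day 2 replicate 3. In the parenchyma 11 rose with a median of 0.69, and in the dorsal SVZ 2 rose with a median of 0.37, against 1.70% and 0.182% of all genes. The collagen-degrading protease gene ctsk went from 2.95 and 3.13 to 6.16, 6.22 and 7.08 in the parenchyma and from 3.44, 2.96 and 3.16 to 4.76, 4.80 and 5.38 in the dorsal SVZ, with a difference of -1.65 (adjusted p = 0.269). Its unlesioned parenchyma mean lay under 3.09, so these sizes are not exact. At day 2 it was lower in the dorsal SVZ with no overlap (direct contrast -1.51, adjusted p = 0.00229). The cathepsin genes ctsh (-1.24) and ctsz (-1.21) and the galactosidase gene glb1 (-0.61) were also lower without overlap, and ctsc was lower (-1.42) with overlapping arrays. The calls of ctsz and glb1 were each lost without 4 of the 11 arrays taken one at a time, and that of ctsc without 3. The membrane receptor gene scarb2a had a difference of -1.74 (adjusted p = 0.224) with another shape, a change of 0.69 in the parenchyma and -1.05 in the dorsal SVZ, neither of them called.

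Of 16 neutrophil and mast cell genes none was called in the difference. At day 2, 3 were lower in the dorsal SVZ (2.23% of all genes were), among them the granulocyte receptor gene csf3r (-1.2). The call of csf3r was lost without 3 of the 11 arrays taken one at a time, and that of il6r without 9. That of cebpa was kept whichever array was left out. The mean of that list ran from 3.86 to 4.13 in day 2 parenchyma and from 3.65 to 3.73 in day 2 dorsal SVZ. Of 13 erythrocyte and thrombocyte genes none was called in the difference and 11 signs were positive, with a median of 0.39 that was 0.14 without parenchyma day 2 replicate 3 and 0.60 without replicate 2. Their mean overlapped between the day 2 groups, 3.81 to 4.24 in the parenchyma and 3.99 to 4.51 in the dorsal SVZ.

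Of 39 measured cholesterol and sterol genes, cyp51 was called lower in the difference and none higher, a call lost without 8 of the 11 arrays taken one at a time. Of the 39, 9 were lower and 1 higher at an unadjusted p under 0.05, against 3.63% and 3.17% of all genes. A negative sign was seen for 32, and the median was -0.32. In the dorsal SVZ 10 fell, against 0.0883% of all genes, and none rose (median -0.51), and in the parenchyma 2 fell and 1 rose (median -0.17), where 0.332% of all genes fell. Without a lesion 16 were higher in the dorsal SVZ and 1 lower (median 0.65, against 4.89% and 1.81% of all genes). At day 2 it was 4 and 2, against 4.76% and 2.23% of all genes. The day 2 median was 0.18, or 0.12 without dorsal SVZ day 2 replicate 3 and 0.03 once each array's median was subtracted. The mean of the list was 5.70, 5.82 and 5.91 in unlesioned dorsal SVZ and 5.11, 5.15 and 5.25 at day 2, with no overlap. In the parenchyma it was 5.05 and 5.08 without a lesion and 4.80, 4.91 and 5.04 at day 2. A fall of the median was not particular to this list. The circadian clock list had -0.44 in the dorsal SVZ and -0.26 in the parenchyma, and -0.12 in the difference. Of its 37 measured genes none was called in the dorsal SVZ and 1 was called fallen in the parenchyma.

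The squalene epoxidase gene sqlea fell from 6.12, 6.07 and 6.44 to 3.55, 3.69 and 3.51 in the dorsal SVZ, while the parenchyma read 3.17 and 3.17 without a lesion and 3.46, 3.38 and 3.25 at day 2. The parenchyma arrays lay close to 3.09, where little further fall could be measured. The difference was -2.82 (SE 0.58, adjusted p = 0.0927). The hydroxymethylglutaryl-CoA synthase gene hmgcs1, at the head of the pathway, went from 6.28, 7.17 and 6.75 to 4.19, 3.60 and 4.63 in the dorsal SVZ and from 4.28 and 4.11 to 3.94, 3.87 and 3.69 in the parenchyma, with a difference of -2.23 (adjusted p = 0.115). The sterol desaturase gene sc5d had -1.70 (adjusted p = 0.0940), with a fall of 1.87 in the dorsal SVZ (limma log2 fold change -1.87, adjusted p = 0.00022) and overlapping parenchyma groups. The rate-limiting reductase gene hmgcra had a difference of -1.27 (adjusted p = 0.325) and a dorsal SVZ change of -1.67 (adjusted p = 0.00216).

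Other genes of the list behaved otherwise. The fatty acid desaturase gene fads2 fell in both regions (-1.07 in the parenchyma, adjusted p = 0.0496, and -1.38 in the dorsal SVZ, adjusted p = 0.0135), and it was lower in the dorsal SVZ at both times (-1.13 without a lesion and -1.44 at day 2). The genes called higher in the dorsal SVZ at day 2 were the desaturase gene scd (1.59), the escort protein gene scap (1.38), mylipa (1.97), which encodes a ligase that removes lipoprotein receptors, and the sterol reductase gene hsd17b7 (0.91). All 4 were called higher without a lesion as well.

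**Figure D4:**
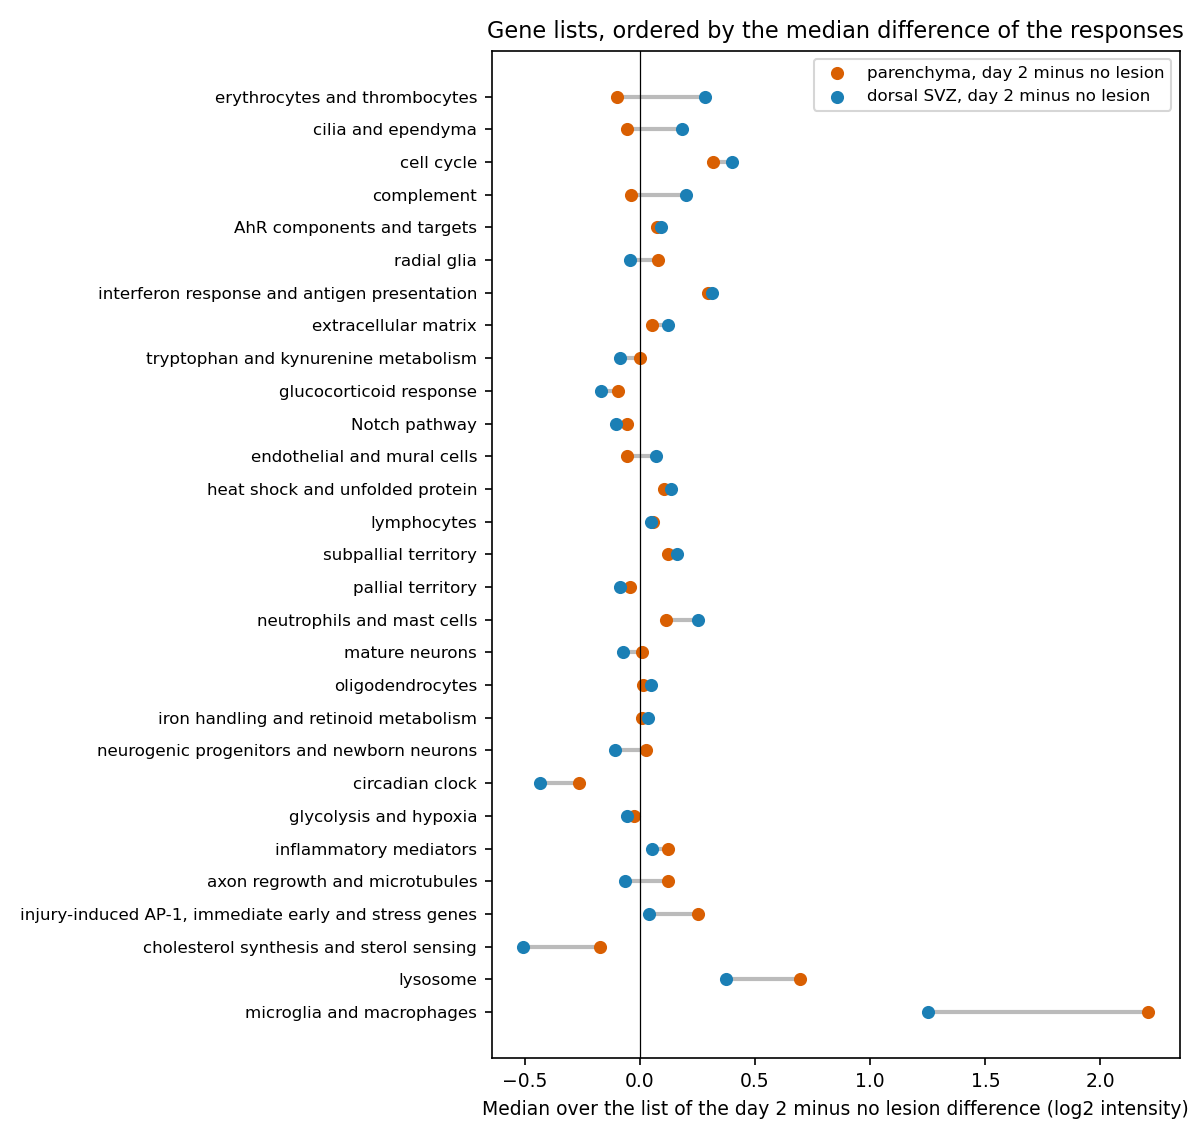
Each row is a gene list, ordered by its median in the difference of the responses, and the points give the median day 2 minus no lesion change over the list in the parenchyma (orange) and the dorsal SVZ (blue), as log2 intensity. Microglia lie at the foot with 2.21 and 1.25, and cholesterol genes lie at -0.17 in the parenchyma and -0.51 in the dorsal SVZ. In the same order, circadian clock genes lie at -0.26 and -0.44 and lysosomal genes at 0.69 and 0.37. Cell cycle genes lie at 0.32 and 0.40 and interferon genes at 0.30 and 0.31, and most other lists lie nearer 0.

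Injury and stress genes had 63 measured members, of which atf3 was called lower in the difference and 62 were not called, with a median of -0.29 and 44 negative signs. The median was -0.05 without dorsal SVZ no lesion replicate 1, -0.49 without replicate 2, -0.18 without parenchyma day 2 replicate 2 and -0.16 without dorsal SVZ day 2 replicate 3. The mean of this list was 6.05 on 1 unlesioned dorsal SVZ array and 5.41 on both others. In the parenchyma 6 rose (1.70% of all genes did) and in the dorsal SVZ none was called. The transcription factor gene sox11a, which acts in newborn neurons and regrowing axons, was at 5.04 and 4.06 in unlesioned parenchyma, 6.86, 5.65 and 6.06 at day 2, 6.64, 6.84 and 6.45 in unlesioned dorsal SVZ and 6.69, 6.85 and 7.05 at day 2. Its difference was -1.42 (adjusted p = 0.224), and day 2 parenchyma overlapped with the dorsal SVZ. The immediate early genes jun (-0.98, adjusted p = 0.616) and ier2b (1.05, adjusted p = 0.494) had opposite signs and were not called.

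On the list of axon regrowth and microtubules, tubb5 and atf3 were called lower of 58 measured genes, and 41 had a negative sign. In the parenchyma 9 rose (1.70% of all genes did) and none fell, and in the dorsal SVZ none was called. Members risen in the parenchyma included the growth cone genes marcksa (difference -0.92, adjusted p = 0.455) and marcksl1a (-0.69), the tubulin genes tuba5 (-1.23) and tuba1b (-1.04), the microtubule regulator gene stmn1b (-0.57) and the thymosin gene tmsb (-1.10), none of them called in the difference. Genes of neurogenic progenitors and newborn neurons gave 1 call of 41, tubb5. There 4 rose in the parenchyma (1.70% of all genes did) and none was called in the dorsal SVZ. At day 2 12 were higher and none lower in the dorsal SVZ (15 and none without a lesion), against 4.76% and 4.89% of all genes higher.

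None of 35 radial glia genes was called in the difference of the responses. As 0.0519% of all genes were called in it, a list of this size without a call is near the background, as are the lists without a call that follow. Of the 35, 18 signs were positive, and no member was called in either region alone. At day 2 19 of them were higher and 1 lower in the dorsal SVZ (against 4.76% and 2.23% of all genes), with a median of 1.2, and without a lesion it was also 19 and 1 (4.89% and 1.81%), with a median of 1.21. The helix-loop-helix gene id1, which restrains stem cell activation, came closest in the difference, at 1.16 (SE 0.41, adjusted p = 0.487). It was at 8.54 and 8.50 in unlesioned parenchyma and 7.02, 7.42 and 7.94 at day 2, and between 9.81 and 10.28 on all 6 dorsal SVZ arrays. The brain aromatase gene cyp19a1b was the member lower in the dorsal SVZ, at both times (-1.38 and -2.13), and gfap had a difference of -0.68 (adjusted p = 0.885).

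Genes of the Notch pathway, which keeps radial glia quiescent, also gave no call of 29 in the difference, and 11 were higher and none lower in the dorsal SVZ at day 2 (10 and none without a lesion). Over all genes 4.76% were higher at day 2 and 4.89% without a lesion. Cilia and ependyma genes had 12 of 32 higher and none lower at day 2, with a median of 0.67, and 8 higher without a lesion, with a median of 0.57, against the same shares. Among them were the sperm flagellum gene spag6 (2.00), the tektin gene tekt1 (1.91) and the ciliogenesis factor gene foxj1a (1.77). In the difference none of the 32 was called, and 3 were higher and none lower at an unadjusted p under 0.05 (3.17% and 3.63% of all genes). The median was 0.23, or 0.12 without parenchyma no lesion replicate 1 and 0.13 without dorsal SVZ day 2 replicate 3. Of 43 cell cycle genes none was called in the difference or reached an unadjusted p under 0.05, and the proliferation gene MKI67 had -0.14 (adjusted p = 0.987) and the replication clamp gene pcna 0.23. The cytokine gene il1b had 0.57 (adjusted p = 0.863), and none of 44 inflammatory mediators was called. The il1b value ran from 0.115 to 1.03 over the settings. It was among the genes of lowest mean that the low-level setting left out, so it was weakly measured.

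The direct contrast of the day 2 groups called 1345 genes (6.98%), 916 higher in the dorsal SVZ (4.76%) and 429 lower (2.23%). Subtracting each array's median turned this split to 692 and 901, and normalizing the quantiles again gave 816 and 629, so the balance of directions is not settled. Of the higher genes 540 were also called higher without a lesion, which is 59.0% of the 916 and 57.4% of the 941 unlesioned calls. Of the lower genes 126 were, 29.4% of the 429 and 36.2% of the 348. The unlesioned sign was the same for 890 of the 916 higher genes and 355 of the 429 lower genes. Across the 13921 genes above the median of all probe sets, the regional differences at the 2 times, which share no array, had a Pearson r of 0.719, where the points are genes and not replicates.

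**Figure D5:**
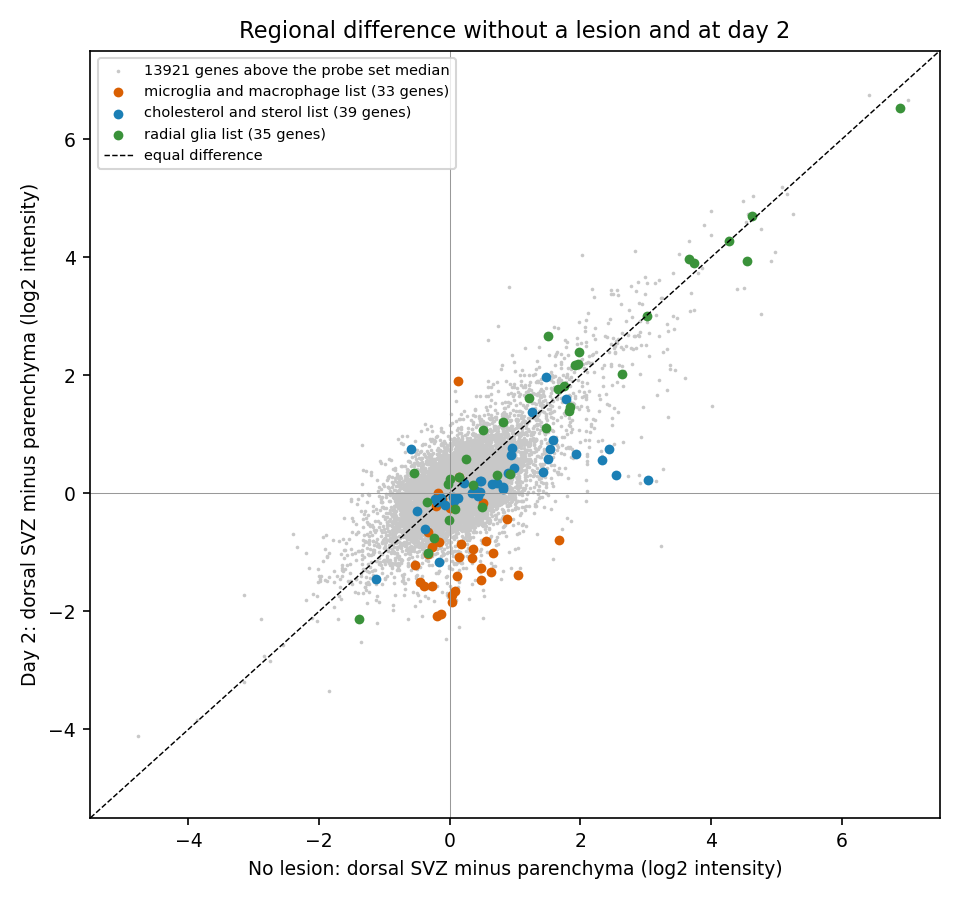
Each point is a gene, with dorsal SVZ minus parenchyma without a lesion on the horizontal axis and at day 2 on the vertical axis, both as log2 intensity. Grey points are the 13921 genes above the median of all probe sets and the dashed line marks an equal difference, with radial glia genes (green) along that line, microglia genes (orange) mostly under it near an unlesioned difference of 0, and cholesterol genes (blue) under it on the right.

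The 12 widest rises in the direct contrast were all called higher in unlesioned dorsal SVZ. They were led by the sulfate transporter gene slc13a1 (6.75 at day 2 and 6.42 without a lesion), the carnosine dipeptidase gene cndp1 (6.66 and 7.02), the fatty acid binding gene fabp7b of radial glia (6.53 and 6.89) and the Wnt inhibitor gene sfrp5 (5.19 and 5.08). The retinol carrier gene rbp4 (5.08 and 5.17), the bridging protein gene mfge8a (5.03 and 4.64), the small heat shock gene hspb1 (4.96 and 4.48) and the connexin 43 gene gja1b (4.74 and 5.25) followed. Then came her4.1 (4.70 and 4.62), tmem72 (4.60 and 4.53), the glial potassium channel gene kcnj10b (4.54 and 3.89) and the lipid phosphatase gene ppap2d (4.48 and 4.77). None was called in the difference of the responses. The parenchyma means of her4.1, rbp4 and tmem72 at both times and of hspb1 without a lesion lay under 3.09, so these sizes are not exact.

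Among the 12 widest falls, taken in the same way, 7 were called lower without a lesion too: mbpa (-4.12 at day 2 and -4.77 without a lesion), the synapse organizer gene cbln2b (-3.19 and -3.14), the somatostatin gene sst1.1 (-2.84 and -2.76), ndnfl (-2.75 and -2.85), the AMPA receptor partner gene cnih3 (-2.57 and -2.55), atf5b (-2.16 and -2.04) and cyp19a1b. The 5 others were not called without a lesion. They were the nucleoside kinase gene nme2a (-3.34 at day 2 and -1.85 without a lesion), the peptide gene pyyb (-2.52 and -1.36), tgm2l (-2.27 and 0.14), the GABA receptor gene gabra3 (-2.20 and -1.11) and the C-reactive protein gene crp1 (-2.13 and -1.71). The day 2 dorsal SVZ mean of nme2a lay under 3.09. The call of crp1 was lost without 5 of the 11 arrays taken one at a time. Of these 5, tgm2l was the 1 gene called in the difference of the responses.

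Of 41 mature neuron genes, 6 were lower in the dorsal SVZ at day 2, 1 was higher and 34 were not called (median -0.35), and of 36 endothelial and mural genes 12 were lower, 5 higher and 19 not called (median -0.27), against 2.23% lower and 4.76% higher over all genes. The second median was -0.43 without parenchyma day 2 replicate 1 and -0.17 without replicate 3. Without a lesion the counts lower and higher were 6 and 2, and 9 and 4, against 1.81% and 4.89% of all genes. The GABA synthesis genes gad2 (-1.53) and gad1b (-1.49) and the vesicle transporter gene slc32a1 (-1.49) of inhibitory neurons were lower at day 2. The 1 neuron gene called higher was calb2a, whose direct contrast ran from 1.86 to 2.39 over the settings. The adhesion gene pecam1a was lower by 1.89 at day 2 (direct contrast -1.89), and without a lesion its value of -0.86 was not called. Of the 5 endothelial and mural genes called higher at day 2, notch3 had 2.34 to 2.75 over the settings. Neither the neuron list nor the endothelial list gave a call in the difference. The genes gad2, gad1b and slc32a1 were also on the list of subpallial territory. Of its 36 genes 9 were lower and 2 higher at day 2, and 6 and 1 without a lesion, against the same shares. Of 26 genes of pallial territory, 6 were higher and 1 lower at both times. Whether the pieces differed in the territory they held was not tested.

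The series title names the aryl hydrocarbon receptor, a ligand-activated transcription factor. Of 21 measured components and targets none was called in the difference. The gene foxq1b was the 1 member at an unadjusted p under 0.05 (-0.55), where 3.63% of all genes were lower. The quinone reductase gene nqo1, a known target in mammals, was at 2.81, 3.08 and 3.27 in day 2 parenchyma and 4.82, 5.93 and 5.63 in day 2 dorsal SVZ, and was the 1 member called in the direct contrast (2.4, adjusted p = 1.81e-05). It was higher without a lesion by 2.24 (adjusted p = 0.00021), and its difference of the responses was 0.16. Its parenchyma means lay under 3.09 at both times, so these sizes are not exact. The receptor genes ahr1a, ahr1b and ahr2 had differences of 0.36 (with its 4 group means under 3.09), 0.54 and 0.07, and their partner genes arnt and arnt2 had 0.27 and -0.16. The repressor genes ahrra, ahrrb and tiparp had 0.25, 0.13 and 0.03. The others, aldh3a1, cyp1b1, cyp1d1, foxq1a, gsta.1, hsp90ab1, nfe2l2a, nfe2l2b, ptges3a, ptges3b and sox9b, lay between -0.53 (nfe2l2a) and 0.58 (ptges3a). The genes ahr1a, ahrra, ahrrb, aldh3a1, cyp1d1, foxq1a, foxq1b, gsta.1 and nfe2l2b were among those of lowest mean that the low-level setting left out. These were weakly measured, and the lack of a call does not show that they were unchanged.

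The medial neurogenic zone is another ventricular region. Its arrays did not enter the size of the difference, but they entered the variance behind its SE and adjusted p. Without the medial arrays in the fit 4 genes were called lower, 3 of them also called in the main fit. The values of the medial zone stand beside those of the other regions. There the day 2 minus no lesion change was 2.57 for arpc1b, 1.00 for wasf2, 0.96 for tgm2l, 0.94 for ms4a17a.10, 1.64 for atf3, 0.27 for tubb5, -0.09 for kcna3a, 0.57 for arhgap27, 1.06 for cst14b.1 and -1.58 for cyp51. For arpc1b this lay between the parenchyma value of 3.59 and the dorsal SVZ value of 1.62, and for atf3 close to the parenchyma value of 1.81. For cyp51 it lay nearer to the dorsal SVZ (-2.09) than to the parenchyma (-0.32). These differences between the medial zone and the other regions were not tested here.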

How the data were processed

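RNA of the tissue pieces was amplified and hybridized to Affymetrix zebrafish arrays. The authors deposited log2 intensities made with RMA in Affymetrix Expression Console 1.2, per the submitters' processing notes. The table held 75212 probe sets and array medians of 3.01 to 3.21. Scanner files were not used here, so background correction and scan batches could not be varied, and precision was limited by 2 or 3 arrays a group. Of the probe sets, 20806 carried 1 symbol in the platform annotation, 855 several and 53551 none. Entrez identifiers matched a current RefSeq gene table for 20323 and changed 1 symbol. Each of 19260 genes was represented by its brightest probe set (mean over the 26 arrays), and 1365 had several.

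All arrays entered 1 model with a mean for each of 9 groups (limma 3.58.1, lmFit, contrasts.fit and eBayes, under R 4.3.3), which uses 1 variance per gene for all regions. The script was tested on simulated data. The threshold was 0.05 for p adjusted over all genes by Benjamini-Hochberg, and every adjusted p and SE for a gene is from limma. Figures were drawn with matplotlib 3.10.9, and tables were handled in python 3.11.15 with numpy 2.4.6 and pandas 2.3.3. The comparison, the members and the 29 gene lists were chosen with earlier results of these data known. Lists are described by counts and medians.

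Named genes were all genes called in the difference, the 12 widest rises and falls of the direct contrast with groups that do not overlap, some of the members of smallest p in each list discussed, gfap, pcna, MKI67, lcp1, il1b and the receptor genes, and the 10 smallest p in each direction of the difference, without clone names. The 10 genes of smallest p among those not called in the difference were added after the values were seen. Where a further member of a list is named, it too was chosen after its values were seen.

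Same-numbered day 2 arrays of the regions had correlated deviations from their group means (r 0.172 to 0.259 over 3 pairs). Other pairs had r of -0.14 to -0.077, but deviations within a group cancel out, so these values are not independent of the first. The numbers were taken to pair the arrays in the block settings, whereas the main fit and its adjusted p used no pairing. Unlesioned pairs had r of -0.112 to -0.001. The alternatives were array weights, other normalization, low-level and probe set choices, other sets of arrays in the fit, the replicate number as a block, and leaving out each array.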

Additional observations from a re-analysis of the deposited data

Results flagged for a closer look

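The test of the difference between the regions itself picked out the 10 called genes, with the dorsal SVZ response minus the parenchyma response at -1.97 for tubb5, -2.41 for tgm2l, -2.20 for wasf2, -1.97 for arpc1b, -1.41 for kcna3a, -1.76 for cyp51, -2.63 for ms4a17a.10, -2.24 for atf3, -2.44 for arhgap27 and -2.58 for cst14b.1 on the log2 scale. No group of the comparison had 4 or more arrays, so single arrays were not tested as outliers. Parenchyma day 2 replicate 1 had the lowest array weight, limma's estimate of an array's relative precision, at 0.519, and the unlesioned parenchyma arrays had 0.682 each, against 1.044 to 1.369 in the dorsal SVZ. In a group of 2 arrays the weights are always equal, so they cannot show which unlesioned parenchyma array is less precise. Without parenchyma day 2 replicate 1, 28 genes were lower and 1 higher.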

How the results depend on the processing

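No called gene changed its sign in any setting run. The 10 lower calls of the difference became 6 with array weights, 4 with weights per region, 3 after quantile normalization again, 4 in the groups of the comparison alone and 4 with the dorsal SVZ and parenchyma arrays alone. With the replicate number as a block over all arrays they were 2, and within each time 0, whereas a random block within time (consensus correlation 0.021) gave 11. The remaining settings, on low-level genes, probe sets, a trended robust prior and the array median, gave 10 to 12 and kept all 10. Leaving out 1 array gave 0 to 28 lower and 0 to 13 higher: 0 lower without parenchyma day 2 replicate 3 or no lesion replicate 1, 2 without dorsal SVZ day 2 replicate 1 or 2 or no lesion replicate 2, 5 and 6 without dorsal SVZ no lesion replicate 1 and 3, 13 (8 of the 10 among them) without dorsal SVZ day 2 replicate 3, 10 (5 of the 10 among them) without parenchyma day 2 replicate 2, 28 without parenchyma day 2 replicate 1, and 16 lower with 13 higher without parenchyma no lesion replicate 2. Leaving out parenchyma day 2 replicate 1 and day 7 replicate 3 together, a choice made after seeing the data, gave 30 lower. The call of tgm2l was lost in 1 and that of tubb5 in 2 of 13 other settings, and each without 2 of 11 arrays. In the direct contrast 901 genes were lower once each array's median was subtracted, which moved the median of all genes by more than 0.1 to -0.143, and 234 in the groups of the comparison alone. Subtracting the array median also moved 25 of the 29 list medians of the direct contrast by more than the spread between arrays of a group. Leaving out 1 array gave 658 to 936 higher and 291 to 433 lower. The replicate block within time gave 873 and 437, and on the day 2 arrays alone, added after seeing the data, 758 and 374. The microglia median of the difference ran from -1.53 to -0.998 and the cholesterol median from -0.44 to -0.25.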
